A study of Mus musculus with 12 samples.

Results

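Heat shock proteins and their chaperone relatives were described here in ribosome-bound RNA from mouse hippocampus, in 77 genes of the 17823 that were tested. The genes were chosen by symbol and a read minimum. The symbols were Hspa, Hspb, Hspd, Hspe or Hsph followed by a digit, and Hsp90. They also took in Dnaja, Dnajb and Dnajc followed by a digit, and Cct2 to Cct8. Each gene was counted at least 15 times when the 12 libraries are added up. Of the 81 genes whose symbols fit, 77 reached that minimum. They comprised 14 genes of the HSP70 and HSP110 group, 3 HSP90 genes, 2 mitochondrial chaperonin genes, 9 Cct genes, 4 Dnaja, 11 Dnajb and 27 Dnajc genes, and 7 small heat shock protein genes. The symbols and the read minimum set the membership. Which members are named with values depended in part on their levels and p-values.

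The libraries came from male C57BL/6J mice aged 2 to 6 months. All animals, controls included, carried a tamoxifen-inducible Cre under a Wfs1 bacterial artificial chromosome (Wfs1-CreERT2) and the RiboTag allele, which puts an HA tag on the ribosomal protein Rpl22 in cells where Cre has acted. Tamoxifen was given on 3 days and the whole hippocampus was taken 1 week later, so the tag and the antibody, not the dissection, selected the CA1 pyramidal neurons. The 6 WT libraries were Wfs1-CreERT2:RiboTag and the 6 Fmr1 KO libraries carried in addition the Fmr1 deletion ("Frm1 knockout" in the labels), the mouse model of fragile X syndrome. Each library pooled 4 to 6 mice, so the spread between libraries is a spread between pools. The comparison asks which ribosome-bound transcripts differ in CA1 pyramidal cells that lack FMRP, the RNA-binding protein that Fmr1 encodes.

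Chaperones bind unfolded protein chains. HSP70 proteins hold short hydrophobic stretches in an ATP-driven cycle, J-domain proteins (the Dnaja, Dnajb and Dnajc products) deliver clients and trigger ATP hydrolysis, HSP110 proteins exchange the nucleotide, HSP90 acts late on kinases and receptors, small heat shock proteins hold unfolded chains without ATP, and the ring-shaped chaperonins (CCT in the cytosol, Hspd1 with Hspe1 in mitochondria) enclose a client while it folds. The cytosolic set is induced by heat shock factor 1 (Hsf1) through heat shock elements, and the endoplasmic reticulum set by ATF6 and XBP1 through endoplasmic reticulum stress elements (ERSE). Neurons are known for high levels of Hspa8 and Hsp90ab1, the constitutive cytosolic forms, and for J-domain proteins that work on synaptic vesicles.

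The promoters were searched for the letters of both elements, and stretches with an exact match are printed because the endoplasmic reticulum members with the lowest p-values carry them. The windows were RefSeq promoter entries (GRCm38.p6) that run from 250 bases before an annotated start to 50 after it, and 62 of the 77 members had an entry. The ERSE letters, CCAAT and CCACG with 9 bases of any kind between them, searched on both strands, stood in 3 members, or 4.84% of the 62, against 0.137% of all genes with an entry and 0.166% of the tested genes with one. These were Hspa5 and Hsp90b1, the HSP70 and HSP90 of the endoplasmic reticulum (BiP and GRP94), and Dnajc3, a J-domain partner of BiP. ERSE is the element named above for the endoplasmic reticulum set, so its presence in these genes is no result of these data. Capitals mark the matches.
Hspa5, chr2:34772005-34772063, plus strand: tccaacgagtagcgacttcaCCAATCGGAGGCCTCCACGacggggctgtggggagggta
Dnajc3, chr14:118937807-118937865, plus strand: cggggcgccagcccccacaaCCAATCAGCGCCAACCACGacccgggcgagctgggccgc
Hsp90b1, chr10:86705513-86705676, minus strand: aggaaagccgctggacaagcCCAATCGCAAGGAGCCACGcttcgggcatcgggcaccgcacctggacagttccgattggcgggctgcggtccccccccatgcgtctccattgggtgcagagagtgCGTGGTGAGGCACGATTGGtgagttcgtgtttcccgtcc

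The Hspa5 match lay 65 to 47 bases before the annotated start and the Dnajc3 match 105 to 87 bases before it. Hsp90b1 held 2 matches in opposite orientations, at 212 to 194 and at 107 to 89 bases before its start. The shorter ERSE-II letters, ATTGG and CCACG with 1 base of any kind between them and also searched on both strands, matched in 1 member, Dnajb11, a luminal J-domain protein that delivers clients to BiP, as ATTGGCCCACG at positions 8 to 18 after the start. ERSE-II stood in 0.0444% of all genes with an entry and in 0.0579% of the tested genes with one.

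The heat shock element was searched on both strands as GAA, TTC and GAA with 2 bases of any kind between neighbours. It matched in 4 members, 6.45% of the 62, against 0.662% of all genes with an entry and 0.593% of the tested genes with one. Members without an entry, Hspa8, Hsp90aa1, Hsp90ab1 and Hspa9 among them, were not searched. Hspd1 and Hspe1 are neighbours on chromosome 1 that are transcribed away from each other, and 1 stretch between them, printed in both directions, held 2 overlapping matches. Dnajb6, a J-domain suppressor of aggregation, held a match that fell in the windows of 2 annotated starts.
Hspd1, chr1:55088039-55088096, minus strand: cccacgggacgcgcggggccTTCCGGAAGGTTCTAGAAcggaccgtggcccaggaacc
Hspe1, chr1:55088039-55088096, plus strand: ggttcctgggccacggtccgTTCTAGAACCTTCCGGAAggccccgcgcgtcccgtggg
Dnajb6, chr5:29735832-29735884, plus strand: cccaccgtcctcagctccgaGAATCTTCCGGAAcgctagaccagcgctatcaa

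The fourth, Hsph1 (HSP110), matched only after the start, as TTCTGGAAAGTTC at positions 16 to 28 of 1 start and 37 to 49 of the other. Hspa1a and Hspa1b, the classical heat-induced HSP70 pair, had entries without a match, which says only that these exact letters are not in those windows. A match is a run of letters and was not tested as a binding site.

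**Figure D1:**
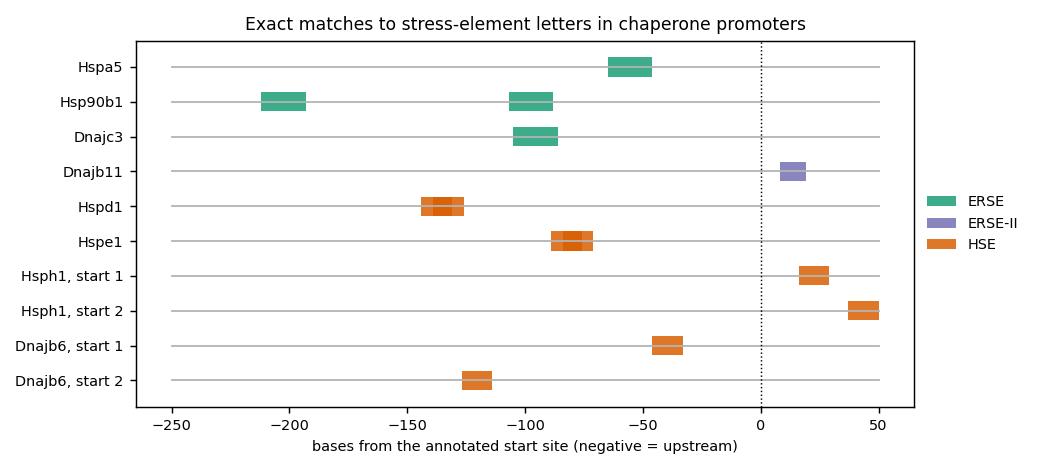
Positions of exact matches to the ERSE, ERSE-II and heat shock element (HSE) letters in the promoter windows of 8 chaperone genes, in bases from the annotated start (dotted line). Each grey line is 1 window of 250 bases before to 50 after a start, and genes with 2 annotated starts have a line for each. The ERSE matches of Hspa5, Hsp90b1 and Dnajc3 lie before the start, and the Dnajb11 and Hsph1 matches lie after it.

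Library totals were 39400980 to 55745464 reads in WT and 43106629 to 65565479 in Fmr1 KO. Fmr1 had 1971 to 2608 reads in each WT library and 0 or 1 in each Fmr1 KO library, as the labels state. The CA1 pyramidal markers (7 genes, Camk2a and Wfs1 among them) summed to 8128 to 10100 CPM in WT and 7898 to 9351 in Fmr1 KO, where CPM is counts per 1000000 reads after TMM scaling. Markers of other cells were present in every library: the choroid plexus and ependyma sum was 6270 to 11690 CPM in WT and 8240 to 17214 in Fmr1 KO, the astrocyte sum 1883 to 2192 and 2017 to 2960, and the endothelial and mural sum 50.8 to 75.7 and 59.8 to 86.8. Fmr1 KO replicate 1 had the highest sum of all 3. The choroid plexus and ependyma sum was mostly Ttr, with a mean of 8323 of 8758 CPM in WT and 11319 of 11859 in Fmr1 KO. Other lists were not higher as a whole: the oligodendrocyte sum was 1085 to 1629 CPM in WT and 978 to 1491 in Fmr1 KO. The interneuron sum was 166 to 314 and 184 to 233, and the microglia sum 79.0 to 94.2 and 81.7 to 106. In such pulled-down RNA, more cells of a type and more RNA per cell cannot be told apart.

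Chaperone transcripts were a sizeable part of the ribosome-bound pool. The 77 genes took 1.80% ± 0.0517 of the reads in WT (SD, n = 6) and 1.86% ± 0.0976 in Fmr1 KO (n = 6), and the genotypes did not differ beyond the spread of the libraries (two-sided exact permutation test, p = 0.229). Hsp90ab1, Hspa8 and Hsp90aa1 alone made up 47.8 to 50.2% of the chaperone reads in each library. Per kilobase of the longest annotated transcript, Hsp90ab1 stood at 1533 ± 107 CPM per kb over the 12 libraries, Hspa8 at 952 ± 64.4 and Hsp90aa1, the inducible cytosolic HSP90, at 650 ± 38.7. No library range of these 3 genes overlapped that of the next. The order of the first 2 depended on the transcript: over the longest coding transcript Hspa8 stood at 1256 CPM per kb, and its range then overlapped that of Hsp90ab1. Below them came Hsp90b1 with 206 CPM per kb, Hspa5 with 177, Hspa9 with 157, Hspd1 with 151 and Cct5 with 142. The library ranges of each neighbouring pair in that sequence overlapped, while every library of Hsp90b1 was above every library of Hspa9, Hspd1 and Cct5. Of the 77 genes, 26 lay above the 90th percentile in level per kb. That percentile was taken over the 93.2% of tested genes with an annotated transcript length.

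**Figure D2:**
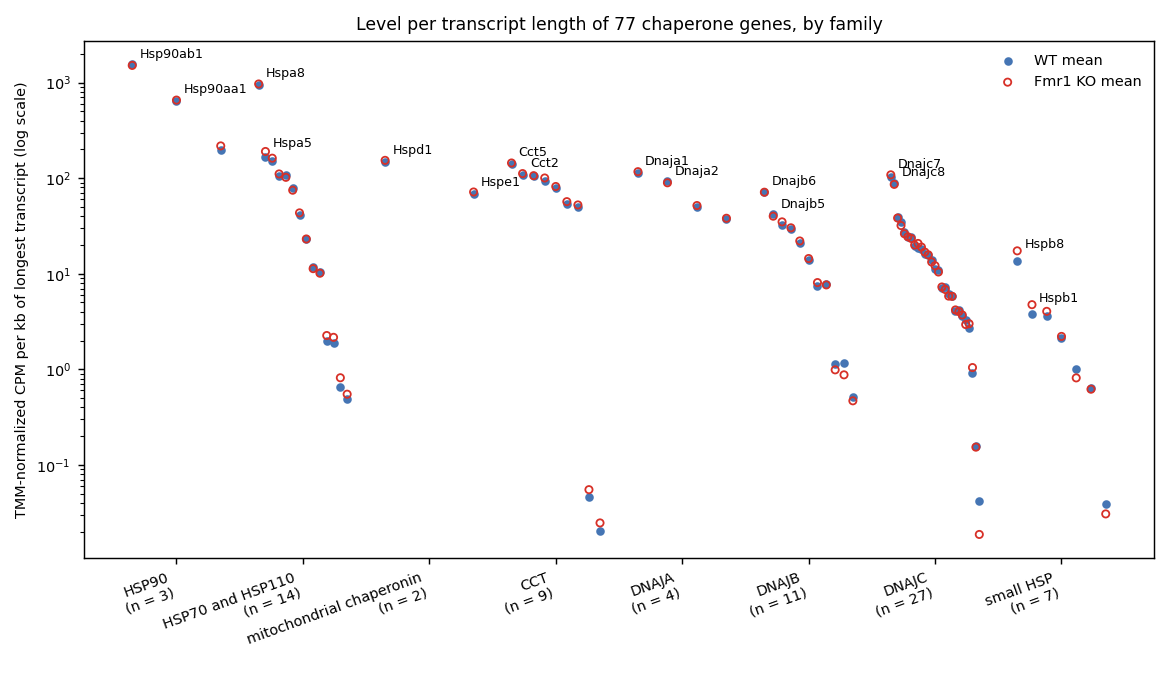
Mean TMM-normalized CPM per kb of the longest transcript (log axis) for the 77 chaperone genes, grouped by family and sorted by level within each family; filled blue points are the WT mean and open red points the Fmr1 KO mean of 6 libraries each. The 2 highest genes of each family are named, and in each family the WT and Fmr1 KO points of the abundant genes nearly coincide.

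The families spanned wide ranges. Within HSP70 and HSP110 the level ran from Hspa8 down to 0.520 CPM per kb for Hspa1l, a testis form. The 2 heat-induced genes Hspa1a and Hspa1b stood at 2.11 and 2.03, levels that shared sequence makes uncertain. Among J-domain genes, Dnaja1, the main cytosolic type I partner of Hspa8, stood at 115 CPM per kb and Dnajc7, a client-transfer factor between HSP70 and HSP90, at 106, with overlapping library ranges. Over the longest coding transcript Dnajc8 also stood at 115. Among small heat shock proteins Hspb8, a partner of Bag3 in selective autophagy, led with 15.5 CPM per kb. Hspb1 stood at 4.27 and Hspb11 at 3.83 with overlapping ranges, but over the longest coding transcript Hspb11 stood at 9.45, above Hspb1 in every library.

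No chaperone gene passed the adjusted threshold between genotypes. At an adjusted p under 0.05 (edgeR's quasi-likelihood test, Benjamini-Hochberg over 17823 genes) 0 of 77 were called, against 0.0224% of all tested genes, or 4 genes, all lower in Fmr1 KO and Fmr1 among them. DESeq2 also called 0 of 77, against 0.471% of all genes, and its lowest adjusted p among the members was 0.243. At an unadjusted p under 0.05 edgeR gave 3 members, 3.90%, where all genes gave 7.96%. All 3 were higher in Fmr1 KO, as were 4.29% of all genes, and 0 members were lower, as were 3.67% of all genes. At the same limit DESeq2 gave 4 members where all genes gave 8.46%. In no member did the WT and Fmr1 KO libraries fall into ranges that did not overlap, which 0.623% of all genes did.

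The estimates themselves were small and fairly tight. The fitted log2 fold change was above 0 in 49 members and below 0 in 28, which is 63.6% above 0 against 51.4% of all genes, and the median was 0.035 over the members and 0.004 over all genes. The members' median deviation varied between libraries with an SD of 0.0769 on the log2 scale. Of the 68 members with at least 1000 reads, 63 had a 95% interval that stayed within 0.5 on the log2 scale (1.41-fold) in both directions. The 5 others were Hspb8, Hspb1, Hspa12b, Hspa1b and Dnajb13.

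**Figure D3:**
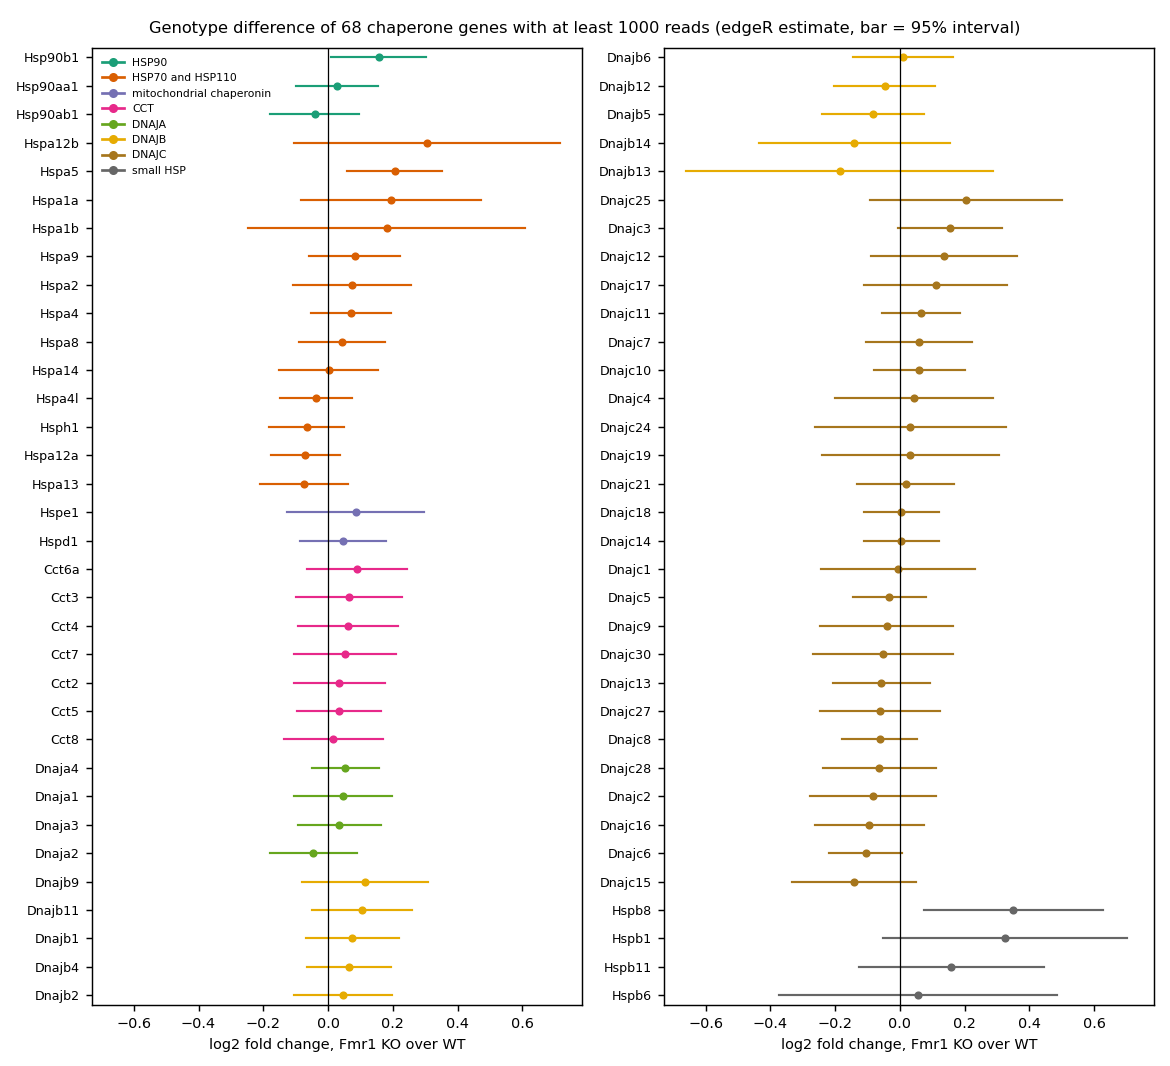
Fitted log2 fold change, Fmr1 KO over WT (positive = higher in Fmr1 KO), for the 68 chaperone genes with at least 1000 reads, coloured by family; points are edgeR estimates and bars their unadjusted 95% intervals from 6 libraries per genotype. The bars of Hspa5, Hsp90b1 and Hspb8 lie above 0 and all other bars cross 0.

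The endoplasmic reticulum chaperones held 2 of the 3 lowest p-values. Hspa5 (chr2:34772090-34776529) encodes BiP, the HSP70 that receives nearly all chains entering the endoplasmic reticulum and keeps the stress sensors inactive. Its level was 512.8 CPM in the lowest WT library, 611 at the median and 664 in the highest, and 621, 692 and 776 in the Fmr1 KO libraries. The ranges overlapped, with Fmr1 KO replicates 1, 2, 4 and 5 above every WT library and WT replicate 2 below all others. The mean was 605 ± 50.6 CPM in WT and 698 ± 60.1 in Fmr1 KO (SD, n = 6 each), a log2 fold change of 0.21 (SE 0.07, 95% interval 0.06 to 0.35), with an edgeR p of 0.0091 that became 0.415 after adjustment.

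Hsp90b1 (chr10:86690841-86705444), the HSP90 that folds integrins and Toll-like receptors in the same compartment, had 569 CPM in the lowest, 637 in the median and 665 in the highest WT library, and 576, 714 and 769 in Fmr1 KO. All Fmr1 KO libraries except replicate 3 were above every WT library. The log2 fold change was 0.16 (SE 0.07, 95% interval 0.01 to 0.30) with an edgeR adjusted p of 0.591. Dnajc3 (chr14:118937932-118981702), which also inhibits the kinase PERK, ran from 89.0 through 94.2 to 109 CPM in WT and from 98.6 through 102 to 132 in Fmr1 KO. Only Fmr1 KO replicate 1 exceeded the highest WT library, and the log2 fold change was 0.15 (SE 0.08) with an edgeR adjusted p of 0.640. Dnajb11 ran from 72.1 through 79.98 to 91.2 CPM in WT and from 74.3 through 90.01 to 95.8 in Fmr1 KO. Its groups overlapped over most of their range, and its log2 fold change was 0.10 (SE 0.07, edgeR adjusted p = 0.798).

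The other luminal and membrane members did not share one direction. Dnajb9, a J-domain repressor of the sensor IRE1, had a log2 fold change of 0.11 (18.4 ± 1.55 CPM in WT, 19.9 ± 2.47 in Fmr1 KO, n = 6 each) and Dnajc10, a disulfide reductase, one of 0.06. Below 0 stood Hspa13 at -0.07, Dnajb12 at -0.05, Dnajb14 at -0.14, Dnajc16 at -0.09 and Dnajc1 at -0.00477. With Dnajc18 at 0.00382, the 12 genes of the list had 7 estimates above 0 and 5 below and a median of 0.031. Their adjusted p-values in edgeR ran from 0.415 to 0.999.

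The library highest in Hspa5 was not average in other respects. Fmr1 KO replicate 1, the highest library for Hspa5, Hsp90b1, Dnajc3, Dnajb11 and Hspb8, was also the highest in the choroid plexus and ependyma sum (17214 CPM) and in the astrocyte sum (2960 CPM). Fmr1 KO replicates 2, 4 and 5, also above every WT library for Hspa5, had choroid plexus and ependyma sums of 8240, 13535 and 11538 CPM. The highest WT library had 11690. Their astrocyte sums were 2728.5, 2468 and 2370 CPM, where the highest WT library had 2192. Over the whole lists, 5 of 6 choroid plexus and ependyma markers, 7 of 7 astrocyte markers and 6 of 6 endothelial and mural markers had estimates above 0, and 0 of 7 CA1 pyramidal markers did. In the other lists 3 of 4 CA2, 4 of 6 microglia, 3 of 10 interneuron, 1 of 5 CA3 and dentate and 1 of 6 oligodendrocyte markers did. The choroid plexus and ependyma list had log2 fold changes of 0.44 for Ttr, 0.33 for Kl, 0.56 for Folr1, 0.11 for Foxj1, -0.01 for Ccdc153 and 0.002 for Tmem212. No marker of any list passed the adjusted threshold. Without Fmr1 KO replicate 1 the log2 fold change was 0.17 for Hspa5 (edgeR adjusted p = 0.714), 0.13 for Hsp90b1 (adjusted p = 0.852) and 0.09 for Dnajc3 (adjusted p = 0.931). Leaving out WT replicate 2 instead lowered the Hspa5 and Hsp90b1 estimates about as much. The log2 fold change was then 0.16 for Hspa5 (edgeR adjusted p = 0.774), 0.13 for Hsp90b1 (adjusted p = 0.885) and 0.14 for Dnajc3 (adjusted p = 0.895). With any 1 library left out, the Hspa5 estimate stayed between 0.16 and 0.24. The part of the other cell types in these values was not tested.

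**Figure D4:**
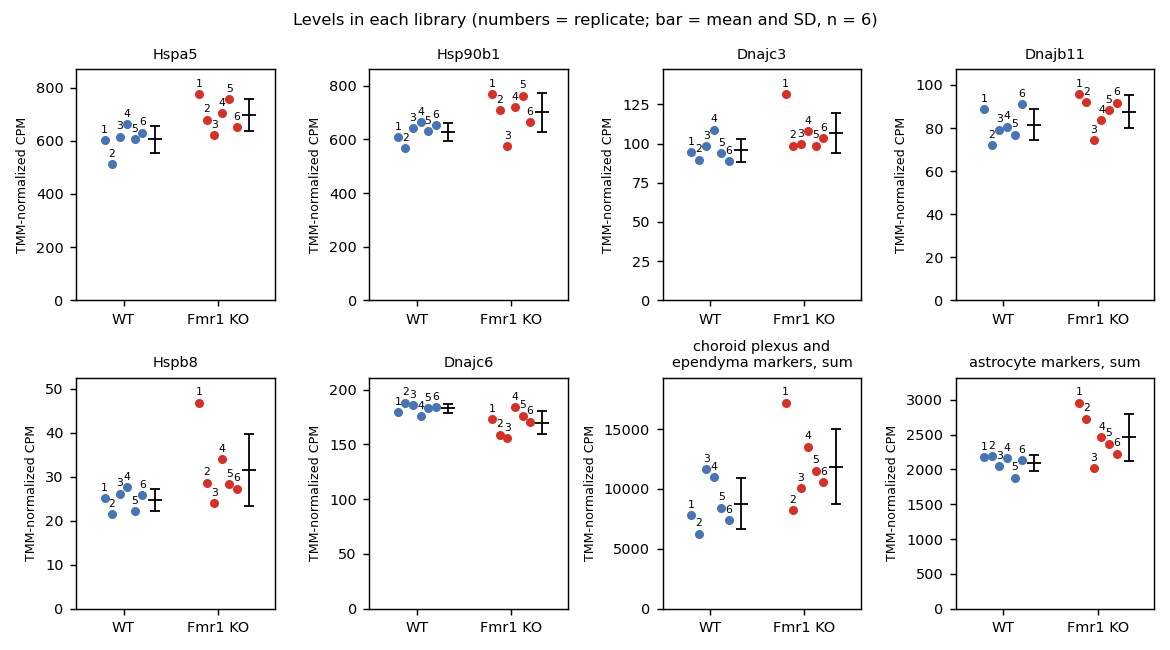
TMM-normalized CPM in each library of 6 chaperone genes and of the summed choroid plexus and ependyma markers and astrocyte markers; points are libraries with their replicate number, and the black bar is the mean and SD of 6 libraries. Fmr1 KO replicate 1 is the highest library for Hspa5, Hsp90b1, Dnajc3, Dnajb11, Hspb8 and both marker sums, and the WT and Fmr1 KO points overlap in every panel.

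Set against the promoter letters, the 4 members with an ERSE or ERSE-II match (Hspa5, Hsp90b1, Dnajc3 and Dnajb11) had estimates above 0 in 4 of 4 and a median log2 fold change of 0.16. The ERSE stretches were chosen for print because of the low p-values of such genes, so this is a description and not a test. Over all tested genes with such a match, 31 in number, 21 had estimates above 0 and the median was 0.066. Over all 13826 tested genes with an entry, 7134 had estimates above 0 and the median was 0.005. The 31 take in these 4 members and also partner genes, together 9 genes, of which 9 had estimates above 0 with a median of 0.12. The 31 are therefore not a separate set, and the remaining genes were not summarized on their own. The median of 0.066 thus does not describe ERSE or ERSE-II genes outside the members and partners. The 4 members with a heat shock element match had a median of 0.028, and the 82 tested genes with one a median of 0.005. No tested gene with an ERSE, ERSE-II or heat shock element match passed the adjusted threshold, where 3 of the 13826 did.

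The heat-inducible genes, 10 of the cytosol and the mitochondrial Hspd1 and Hspe1, had small differences between genotypes. Hspa8 (chr9:40801276-40805202), the constitutive HSP70 that also uncoats clathrin vesicles, ran from 2677 through 2950 to 3222 CPM in WT and from 2778 through 3093 to 3372 in Fmr1 KO. The groups overlapped almost completely, and the log2 fold change was 0.04 (SE 0.06, 95% interval -0.09 to 0.18). Hsp90ab1 (chr17:45567778-45573261) ran from 3701 through 3894 to 4161 CPM in WT and from 3362 through 3932 to 4083 in Fmr1 KO, with a log2 fold change of -0.04 (SE 0.06). Hsp90aa1 had 2111 ± 93.9 CPM in WT and 2152 ± 160 in Fmr1 KO (n = 6 each), with a log2 fold change of 0.03 (SE 0.06).

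The genes that heat induces most strongly had low counts in both genotypes. Hspa1a (chr17:34969359-34972156) ran from 4.59 through 5.41 to 7.24 CPM in WT and from 5.59 through 6.84 to 7.53 in Fmr1 KO, with a log2 fold change of 0.19 (SE 0.13, edgeR adjusted p = 0.790). Hspa1b (chr17:34956429-34959238) ran from 3.13 through 5.48 to 7.16 CPM in WT and from 3.73 through 6.24 to 7.95 in Fmr1 KO, with a log2 fold change of 0.18 (SE 0.20, edgeR adjusted p = 0.897). These 2 genes are near-identical: 62.3% of the 50-base windows of the Hspa1b transcript also occur in Hspa1a. Reads of one could be counted for the other or for neither, since the handling of reads with several matches is not given. Their separate values, and how low both levels are, are therefore uncertain. Hsph1, the HSP110 exchange factor, was the member of the list with the lowest estimate, at 509 ± 18.0 CPM in WT and 486 ± 31.2 in Fmr1 KO (log2 fold change -0.07, SE 0.05). Of the 12 listed genes 10 had estimates above 0 and 2 below, the median was 0.056, and 0 had an unadjusted p under 0.05. Dnajb1, the type II partner that heat induces, stood at 0.08 (SE 0.07) and Dnajb4 at 0.06 (SE 0.06).

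The genes of the cytosolic chaperonin had estimates close to one another. CCT folds actin and tubulin in a double ring of 8 different subunits, of which the symbols chosen here take in 7, and the other, Tcp1, was read with the partner genes. The 7 subunit genes had log2 fold changes from 0.02 for Cct8 to 0.09 for Cct6a, all above 0 in the fit, with a median of 0.054, SEs of 0.06 to 0.08 and 0 unadjusted p-values under 0.05. Cct7 had 306 ± 24.6 CPM in WT and 318 ± 33.8 in Fmr1 KO, Cct5 261 ± 16.9 and 267 ± 18.9, and Cct8 251 ± 20.05 and 254 ± 25.2 (SD, n = 6 each). The Cct8 estimate changed sign in 4 of the 21 alternative settings. Tcp1 stood at 0.05 (SE 0.06). Per kb of the longest transcript the 8 subunit genes lay between 51.4 CPM for Cct4 and 142 for Cct5, and over the longest coding transcript Cct7 changed from 80.3 to 128 and Cct3 from 55.5 to 93.7.

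In mitochondria, Hspa9 (mortalin, the matrix HSP70 that drives import) had 466 ± 31.6 CPM in WT and 493 ± 42.8 in Fmr1 KO (n = 6 each; log2 fold change 0.08, SE 0.07). The chaperonin Hspd1 (HSP60, chr1:55077833-55088243) had 360 ± 25.4 and 372 ± 26.8 CPM and a log2 fold change of 0.05 (SE 0.06). Its lid Hspe1 (HSP10, chr1:55088148-55091317), which shares the promoter stretch printed with it, had 65.1 ± 8.70 and 69.1 ± 9.75 CPM and a log2 fold change of 0.09 (SE 0.10). The J-domain genes of the organelle were Dnaja3 at 0.03, Dnajc11 at 0.07, Dnajc19 at 0.03, Dnajc30 at -0.05 and Dnajc15 at -0.14 (20.1 ± 1.999 CPM in WT, 18.2 ± 1.93 in Fmr1 KO, edgeR adjusted p = 0.770). Of these 8 genes 6 had estimates above 0 and 2 below, and 0 had an unadjusted p under 0.05.

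The small heat shock proteins held the largest estimate with an unadjusted p under 0.05. Hspb8 (chr5:116408491-116422864) ran from 21.4 through 25.4 to 27.7 CPM in WT and from 24.0 through 28.5 to 46.9 in Fmr1 KO. Fmr1 KO replicates 1, 2, 4 and 5 were above every WT library, replicate 1 by far. The log2 fold change was 0.35 (SE 0.13, 95% interval 0.07 to 0.63) with an edgeR p of 0.016 that became 0.493 after adjustment. Without Fmr1 KO replicate 1 it was 0.20 (edgeR adjusted p = 0.777). Hspb1 (HSP25 in mouse, a cap on actin filaments) ran from 2.45 through 3.29 to 5.11 CPM in WT and from 3.43 through 4.12 to 5.59 in Fmr1 KO, with a log2 fold change of 0.32 (SE 0.18, edgeR adjusted p = 0.705). The pseudogene Hsp25-ps1 shares 51.6% of its 50-base windows, which makes its level uncertain. Hspb6 stood at 0.06 (SE 0.20) and Hspb11, an intraflagellar transport subunit, at 0.16 (SE 0.14).

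The 3 J-domain genes of vesicle traffic all had estimates below 0. Dnajc6 (auxilin, chr4:101496648-101642799) recruits Hspa8 to clathrin coats at synapses. It ran from 176 through 184 to 188 CPM in WT and from 156 through 172 to 184 in Fmr1 KO, with Fmr1 KO replicates 1, 2, 3 and 6 below every WT library. Its log2 fold change was -0.11 (SE 0.05, 95% interval -0.22 to 0.01) with an edgeR p of 0.064, or 0.651 after adjustment, and DESeq2 gave an unadjusted p of 0.047 and an adjusted p of 0.525. Dnajc5 (cysteine string protein, which keeps SNAP25 folded) had 258 ± 10.7 CPM in WT and 252 ± 13.9 in Fmr1 KO (log2 fold change -0.03, SE 0.05), and Dnajc13 (RME-8, on endosomes) had 48.6 ± 3.15 and 46.7 ± 4.09 (log2 fold change -0.06, SE 0.07). The related Gak, the non-neuronal auxilin, stood at -0.01 (SE 0.05).

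The remaining J-domain genes lay on both sides of 0. In the cytosol Dnaja1 had 637 ± 46.4 CPM in WT and 657 ± 67.9 in Fmr1 KO (log2 fold change 0.05, SE 0.07), Dnaja2 269 ± 22.4 and 261 ± 16.8 (-0.05, SE 0.06), Dnajb6 207 ± 18.2 and 208 ± 19.99 (0.01, SE 0.07), Dnajb5 214 ± 20.7 and 202 ± 19.7 (-0.08, SE 0.08) and Dnajc7 242 ± 21.4 and 252 ± 27.7 (0.06, SE 0.08). Dnajb6 changed sign in 6 of the 21 alternative settings. The nuclear and ribosome-associated genes were Dnajc2 (zuotin, on the ribosome) at -0.08, Dnajc8, a spliceosome factor, at -0.06, Dnajc9, a histone chaperone, at -0.04, Dnajc17 at 0.11 and Dnajc21, a ribosome biogenesis factor, at 0.02. Over the families, the median was 0.040 for Dnaja (3 above 0, 1 below), 0.009 for Dnajb (6 and 5) and -0.005 for Dnajc (13 and 14). Dnajb3, a testis form with 621 reads in all, stood at -0.41 (SE 0.24, 1.22 ± 0.134 CPM in WT, 0.920 ± 0.286 in Fmr1 KO, edgeR adjusted p = 0.726). Among the HSP70 relatives, the divergent Hspa12a had 450 ± 12.4 and 429 ± 20.3 CPM (-0.07, SE 0.05), and Hspa12b, known from endothelium, 2.25 ± 0.676 and 2.78 ± 0.421 (0.31, SE 0.20).

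Libraries of one genotype differed from each other in these genes as a group. Over the 68 members with at least 1000 reads, the median log2 deviation from each gene's own mean was 0.08 in WT replicates 1 and 6 and in Fmr1 KO replicates 1 and 2, and 0.07 in Fmr1 KO replicate 5. It was -0.08, -0.07 and -0.05 in WT replicates 2, 3 and 4, and -0.11 and -0.05 in Fmr1 KO replicates 3 and 4. In Fmr1 KO replicate 3 only 14 of the 68 genes were above their own mean, and in Fmr1 KO replicate 6 it was 53. Over the 13026 genes of the same minimum, the library medians lay between -0.01 and 0.02. High and low libraries therefore occurred in both genotypes. Dnajc27 and Dnajc1, picked out after their values were seen, ran the other way, with Dnajc27 at 151 CPM in Fmr1 KO replicate 4 and 107 in replicate 1. The median coefficient of variation within a genotype, for genes of at least 10 CPM, was 7.47% in WT and 8.47% in Fmr1 KO for 56 members and 8.84% and 10.3% for all 9693 genes, so the median was lower for the members in both genotypes. The 2 sets were not matched for level above that minimum, and many members are abundant, so the part of level in this difference was not tested.

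**Figure D5:**
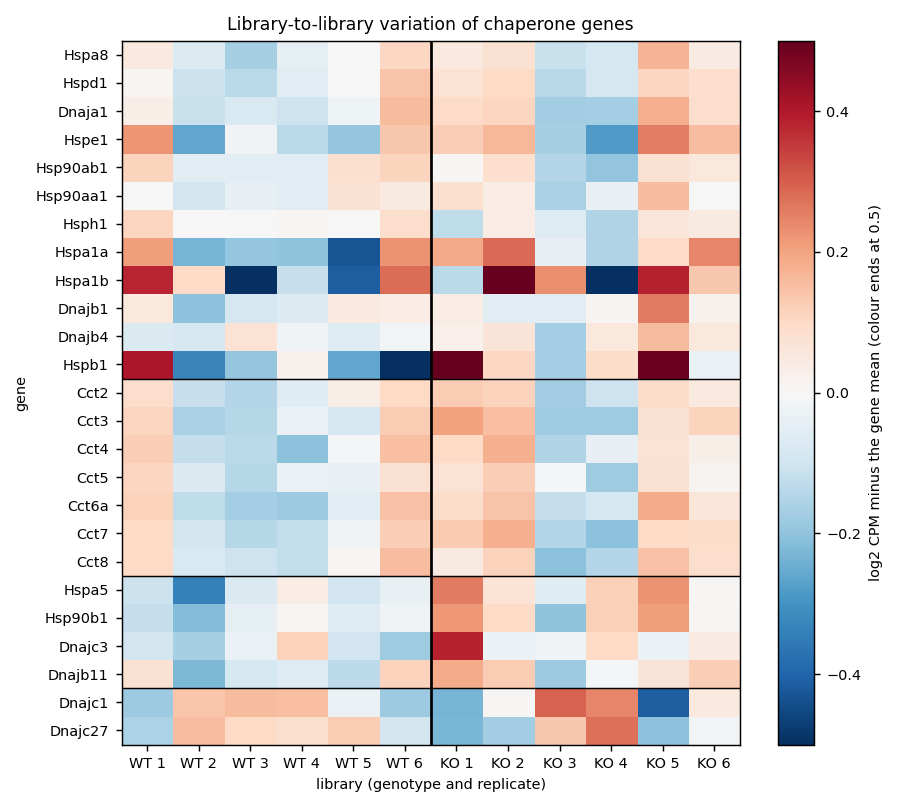
Log2 CPM minus the gene's mean over 12 libraries (colour, red = above the mean, ends at 0.5) for 25 chaperone genes; columns are libraries by genotype and replicate, and lines divide heat-inducible, CCT, endoplasmic reticulum and 2 oppositely varying genes. The heat-inducible and CCT rows are mostly red in WT replicates 1 and 6 and Fmr1 KO replicates 1, 2, 5 and 6 and mostly blue in WT replicates 2, 3 and 4 and Fmr1 KO replicates 3 and 4.

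Whether the heat-inducible members were high in the same libraries was asked by correlating each of 10 with Hspa1b over the 12 libraries. Pearson's r was highest for Hspa8 at 0.69 (permutation p = 0.014, adjusted p = 0.137 over the 10 relations), and none passed 0.05 after adjustment. Spearman's rho for Hspa8 was 0.73 (permutation p = 0.0085, adjusted p = 0.046). Without WT replicate 3 and Fmr1 KO replicate 4, the libraries farthest from the Hspa1b median, r for Hspa8 was 0.41, with no p computed for that smaller set. Hspe1 had an r of 0.57 (permutation p = 0.054, adjusted p = 0.137) and a rho of 0.73 (permutation p = 0.0093, adjusted p = 0.046), and its r was 0.60 without the same libraries. At the other end Dnajb4 had an r of -0.10 (permutation p = 0.763). Within a genotype the r of Hspa8 was 0.79 in WT and 0.55 in Fmr1 KO.

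At the low end, several symbols of the families were hardly read in CA1 ribosomes. Dnajb8 and Dnajc5g had 0 reads in all 12 libraries, Dnajb7 had 3 reads, all in WT replicate 1, and Hspb9 had 8, with 4 in WT replicate 1 and 4 in Fmr1 KO replicate 2. These 4 fell under the read minimum. Just above it, Dnajc5b had 17 reads and Cct8l1 26, and both, like Cct6b with 55 and Hspb7 with 56, are too thin for a comparison: their SEs were 0.77 to 1.25 on the log2 scale. Of the 10 symbols listed as testis or cilia forms, 6 were tested and none had an unadjusted p under 0.05.

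The partner genes of the chaperones, read from a list of co-chaperones, heat shock factors, prefoldin subunits and endoplasmic reticulum stress genes, gave 0 of 64 past the adjusted threshold in edgeR and in DESeq2. In edgeR 4 had an unadjusted p under 0.05, which is 6.25% against 7.96% of all genes in either direction. All 4 had estimates above 0, where 4.29% of all genes were called in that direction. None was lower, as were 3.67% of all genes. Whether the share of higher partner genes differs from the background was not tested. P4hb, the main protein disulfide isomerase, had 116 ± 6.58 CPM in WT and 129 ± 8.52 in Fmr1 KO (n = 6 each; log2 fold change 0.16, SE 0.06, edgeR adjusted p = 0.476). Its relative Pdia4 had 102 ± 9.08 and 119 ± 15.6 CPM (0.22, SE 0.08, edgeR adjusted p = 0.496). The other 2 were Pdia6 at 0.14 and the HSP90 partner Chordc1 at 0.15. Of the 16 endoplasmic reticulum stress genes 11 had estimates above 0 with a median of 0.085. Its transcription factors were Xbp1 at 0.09, Atf6 at -0.03, Atf4 at -0.05 and Ddit3 at -0.09 (SEs 0.06 to 0.10). Hsf1 had 21.6 ± 1.63 CPM in WT and 22.6 ± 3.52 in Fmr1 KO (0.06, SE 0.10, edgeR adjusted p = 0.936). Among the estimates below 0, Bag4, an HSP70 co-chaperone, had the lowest p-value (log2 fold change -0.07, edgeR adjusted p = 0.837). The medians were 0.025 for the 16 HSP90 co-chaperones and -0.009 for the 13 HSP70 co-chaperones.

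Some levels carry an uncertainty from shared sequence. Of the 50-base windows of their longest coding transcripts, 73.2% for Hspa8 (chiefly in Gm15459), 58.5% for Hsp90aa1 (chiefly in Gm12346), 44.8% for Hspd1, 36.1% for Hspe1 and 35.8% for Dnajb6 also occur in other annotated transcripts, many of them processed pseudogenes. For Hsp90ab1 the share was 4.49%. Exons on the same strand also overlap other genes at Dnaja3 with Vasn, Dnajc14 with Sarnp, Dnajc25 with Gm20503, Hspa14 with Gm45902 and Hsp90b1 with Gm15344.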

How the data were processed

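RNA bound to HA-tagged ribosomes was sequenced in 12 libraries (6 WT, 6 Fmr1 KO). The deposited values are raw counts of reads per gene for 24079 genes, which the authors made from stranded poly-A libraries read in single-end mode, aligned to mm10 with TopHat2 2.1.1 and Bowtie2 2.2.8 and counted with HTSeq 0.6.1p1 (union mode, opposite strand). How reads with several matches were handled is not given in the sources used here. Libraries were sequenced 4 to a lane, and which shared a lane is not named.

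Genes with at least 15 reads in total were tested in edgeR 4.0.16 (R 4.3.3, TMM, quasi-likelihood test, genotype only, no block), with Benjamini-Hochberg adjustment over 17823 genes and a threshold of 0.05, and the script was tested on simulated data. SEs are the absolute log2 fold change over the root of F. Depth was 39400980 to 65565479 reads per library. Levels are TMM CPM, divided by GENCODE vM21 lengths where given per kb. Correlations used log2 CPM (prior count 2) and 100000 resamples. Alternatives were DESeq2 1.42.0, limma 3.58.1 voom, other scalings, filters and thresholds, a replicate block and each library left out. Named genes were the 3 most abundant of each family, the 5 lowest p-values in each direction, genes described by role, those under the minimum, the 2 lowest p-values of partner genes in each direction, and Hsf1; 1 gene that this rule takes is not reported here. The other partner genes named, and Tcp1, were chosen after their values were seen. The members and lists were chosen with earlier results of these data known.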

Additional observations from a re-analysis of the deposited data

Results flagged for a closer look

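In 154 groups of 6 libraries (77 genes in each genotype), 5 held a library whose gap to its nearest neighbour exceeded Dixon's 95% critical share of the group's range, where chance gives about 7.7. For Dnajc3, Fmr1 KO replicate 1 stood at 132 CPM and the other Fmr1 KO libraries at 98.6 to 108 (ratio 0.719). For Dnajb1, Fmr1 KO replicate 5 stood at 76.7 CPM against 61.7 to 65.8 (0.723). Hspb3, a small heat shock protein of muscle, was low in WT replicate 5, at 0.279 CPM against 0.767 to 1.02 (0.656). Dnajc5b was high in WT replicate 5, at 0.177 CPM against 0 to 0.0558 (0.686), and Cct8l1 in Fmr1 KO replicate 4, at 0.229 CPM against 0 to 0.0613 (0.733), and both rest on few reads.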

How the results depend on the processing

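Under each of the alternatives run, 0 chaperone and 0 partner genes passed the adjusted threshold, and the median log2 fold change of the members stayed between 0.022 and 0.060. Over all genes, 4 passed, but 84 did with DESeq2, 1 with at least 10 reads required in every library, 2 at a threshold of 0.01 and 2 to 6 with 1 library left out; the count was 2 without WT replicate 4, 5 or 6 or Fmr1 KO replicate 1, 4, 5 or 6. The cause was not tested. The count of members with an unadjusted p under 0.05 was 3, and 2 to 5 with 1 library left out: 2 without WT replicate 2 or 5 or Fmr1 KO replicate 1, and 5 without Fmr1 KO replicate 3. Hspa5 and Hspb8 were among them each time. The count of relations with Hspa1b past the adjusted threshold was 0 by Pearson's r (2 by Spearman's rho), and 0 to 1 with 1 library left out (1 without Fmr1 KO replicate 3). Same-numbered WT and Fmr1 KO libraries did not all deviate together (r -0.08 to 0.09 over all genes and -0.44 to 0.60 over genes with a log2 CPM above 5, and 0 of 12 libraries correlated best with its own number), so the numbers were not taken as pairs; in a fit blocked on that number (replicate block), 4 genes and 0 members passed, and 5 members had an unadjusted p under 0.05 (Dnajc3 and Hspb1 added). Of 1113 refitted estimates of 53 named genes, 29 changed sign and 0 a call; the genes were Cct8, Dnajb6, Dnajc1, Dnajc18, Dnajc19, Dnajc30, Hsf1, Hsp90aa1 and Hspb6, all within 0.07 of 0. Between 24 and 26 members lay above the 90th percentile per kb under 3 transcript lengths, of which the longest coding transcript was chosen after seeing the data. The median SE of a log2 fold change was 0.073 for the 68 members with at least 1000 reads.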
